A study of Homo sapiens with 14 samples.

Results

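CAOV3 and SKOV3 are established cell lines of human ovarian carcinoma, and their m6A levels were compared site by site. N6-methyladenosine (m6A) is a methyl mark that the METTL3 and METTL14 enzyme complex places on adenosines of messenger RNA, and YTH-domain proteins bind it and shorten the life of many transcripts. It lies mainly within the motif DRACH, where D is A, G or T, R is A or G, and H is A, C or T, and it is densest in last exons and in long internal exons, while the stretch near splice junctions carries little. GLORI, the assay used here, turns unmethylated adenosine into a base that is read as G, so the share of reads that still show A at a site is its m6A level.

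The series holds 14 libraries of polyadenylated RNA, made from 6 cancer cell lines kept for 24 h with DMSO and from CAOV3 kept for 24 h with 1 µM STM3675, in a study of METTL3 inhibition. The groups compared were CAOV3 with DMSO (2 libraries) and SKOV3 with DMSO (2 libraries), so both carried the same solvent and neither an inhibitor. Nothing in the labels says whether the libraries of a line came from separate cultures, so p-values measure the spread between these libraries only, which may be technical, and each line is 1 cell line rather than a sample of ovarian tumours. A site was used if it had at least 20 reads in each of the 4 libraries, which held for 143634 of 407343 listed sites (35.3%) in 10212 named genes. Of these, 62397 (43.4%) lay in a DRACH motif and 81237 did not. The median site had 31 reads in its shallowest library. DRACH sites with 15 to 19 reads in their shallowest library, just outside the minimum, had a median difference of 3.47 percentage points between the lines (n = 13260), and those with 20 to 24 reads, just inside it, 3.18 points (n = 10600). All differences are CAOV3 minus SKOV3.

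Read counts summed over listed sites were 19014817 and 18729571 in CAOV3, against 22667614 and 17964055 in SKOV3. A read that covers several sites counts at each of them. One library stood apart. SKOV3 replicate 2 had a median level of 13.8% at non-DRACH sites, against 10.5% in SKOV3 replicate 1, while both CAOV3 libraries had 10.0% and 10.3%. The listed sites had passed a level of 25% in at least 1 DMSO library of any line, and 119586 sites passed it in SKOV3 replicate 2, against 109347 in SKOV3 replicate 1 and 97627 and 99961 in the CAOV3 libraries. At the 27969 non-DRACH sites that passed in none of the 4 libraries, taken here as the background of unconverted adenosine, the median level was 8.51% and 8.82% in CAOV3 and 9.09% and 8.22% in SKOV3. The lines overlapped there, with a difference of 0.012 points (exact permutation test, two-sided, p = 1, n = 2 each). The set leaves out sites with a high level in any of these same libraries. The overlap therefore cannot show that unconverted adenosine was alike in the lines. SKOV3 replicate 2 was the highest library over all non-DRACH sites and the lowest in this set.

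Marker genes set the lines apart. Read counts summed over the sites of a gene were used as a rough measure of its RNA. A read can count at several sites, so these sums, called reads here and below, are not numbers of separate reads. In bulk RNA fewer cells of a type and less RNA per cell cannot be told apart. The epithelial genes EPCAM and CDH1 were higher in CAOV3, and the squamous keratins were lower. EPCAM, an epithelial adhesion protein, had 8185 and 7996 reads in CAOV3 against 349 and 360 in SKOV3, and CDH1, the epithelial cadherin, had 3279 and 2668 against 123 and 127. The basal keratin KRT5 had 235 and 236 reads in CAOV3 against 1100 and 816 in SKOV3, KRT14 had 0 and 0 against 34 and 30, and the squamous transcription factor TP63 had 0 and 1 against 2 and 5. Mesenchymal markers were lower in CAOV3. The intermediate filament VIM had 200 and 266 reads in CAOV3 against 29543 and 25704 in SKOV3. Markers of Müllerian and ovarian epithelium went both ways. MSLN, the surface protein mesothelin, had 4752 and 5058 reads in CAOV3 against 266 and 238 in SKOV3, and the keratin KRT7 had 12199 and 13018 against 967 and 623. PAX8, a transcription factor of that lineage, had 1489 and 1517 reads in CAOV3 against 8098 and 6194 in SKOV3, the transcription factor SOX17 had 72 and 67 against 1681 and 1088, and FOLR1, a folate receptor, 457 and 441 against 1114 and 1048. WT1 was close to 0 in both lines, with 1 and 0 reads in CAOV3 against 28 and 33 in SKOV3. MUC16 had no row. Of the other cell types' lists, the leukocyte genes PTPRC, CD3E and LYZ, the endothelial VWF and the lung genes SFTPC and SFTPB had no row either. CD74, an antigen-presentation gene on the leukocyte list, had 1543 and 1882 reads in CAOV3 against 13 and 6 in SKOV3, and HLA-DRA 168 and 155 against 0 and 0. The endothelial genes PECAM1 and CDH5 had 8 to 28 reads in CAOV3 against 5 to 16 in SKOV3. Of the fibroblast list COL1A1 had 1719 and 1431 reads in CAOV3 against 2175 and 1681 in SKOV3 and LUM 1 and 0 against 163 and 200, while COL3A1, DCN and PDGFRA had no row. The part of these differences in the m6A results was not tested.

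The 5 bases around each site are printed with the tested adenosine in capitals, as in ggAct, the DRACH motif with the most tested sites (10795). Longer sequence was at hand for start windows of genes only, where 603 tested sites lay. Over all tested sites 2.27% were called higher and 0.127% lower. In the start windows 2 sites differed between the lines, both higher in CAOV3. Both are shown because they are the called sites whose surroundings can be read, from RefSeq on GRCh38.p14, 5′ to 3′ on the strand of the gene, with the 5 bases of the site in capitals.

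CREBZF (chr11:85663736-85663765, minus strand): cttacaccatgtcAAACTtaccttagtggg
MT1X (chr16:56682455-56682484, plus strand): cggcttctgggctCCACCacgcttttcatc

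The CREBZF site lies in the DRACH motif aaAct. Its level was 40.7% and 43.8% in CAOV3, against 28.8% and 28.7% in SKOV3 (difference 13.5 points, SE 3.82, adjusted p = 0.0204). The MT1X site is the first base of the first exon and lies outside DRACH. MT1X encodes a metallothionein, and its near-identical family members make the assignment of reads uncertain. Its level was 53.7% and 56.7% in CAOV3, against 6.98% and 2.56% in SKOV3 (difference 50.4 points, SE 8.74, adjusted p = 0.000178, 39 to 60 reads). It was 43.5% and 48.1% in CAOV3 with STM3675, where the CREBZF site was at 8.6% and 8.06%. Whether the A that stays at the MT1X site is m6A was not tested. These 2 sites were singled out after their values were seen.

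Across DRACH sites m6A was higher in CAOV3. The mean over the 62397 sites was 45.3% and 46.5% in CAOV3 and 41.0% and 41.4% in SKOV3, or 45.9 ± 0.815% and 41.2 ± 0.288% (SD, n = 2 each). Both CAOV3 libraries stood above both SKOV3 libraries, and the difference of 4.74 points had an exact permutation p of 0.333 (two-sided), the smallest that 2 libraries against 2 can give. Of the DRACH sites, 36157 averaged 25% or more over those other lines that had at least 20 reads in both DMSO libraries. There the mean was 63.1% and 64.4% in CAOV3 and 57.7% and 57.6% in SKOV3, 6.06 points apart with the same p. Over all tested sites the lines overlapped, with 27.2% and 27.9% in CAOV3 and 25.3% and 27.4% in SKOV3 (difference 1.19 points, exact permutation test, p = 0.667). At non-DRACH sites the means were 13.3% and 13.5% in CAOV3 and 13.2% and 16.7% in SKOV3, where the spread was that of SKOV3 replicate 2 (exact permutation test, p = 1).

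Tested site by site, 3259 of 143634 sites (2.27%) were higher in CAOV3 and 182 (0.127%) were lower at an adjusted p under 0.05 (quasi-binomial F test). DRACH sites held 2992 of the higher sites (4.8% of those tested) and 105 of the lower ones (0.168%). Non-DRACH sites held 267 higher (0.329%) and 77 lower (0.0948%). The lines did not overlap at 3435 of the 3441 called sites. Whether called or not, 71.1% of DRACH sites had a higher mean in CAOV3, and both CAOV3 libraries exceeded both SKOV3 libraries at 41.0% of them, against 9.13% with both below. The called DRACH sites differed by a median of 16.2 points where higher and -16.7 points where lower, and by 20 points or more at 914 higher and 42 lower sites.

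Relative to the median logit difference of DRACH sites with a mean level of 20% to 80%, which was 0.31, 604 sites were higher and 531 lower, in place of 3259 and 182; taking out the median evens the directions by construction. The calls also followed depth. Among DRACH sites with 20 to 49 reads in their shallowest library 0.515% were called higher, and among those with 500 or more 37.8% were (521 of 1378), although the median difference was 3.71 and 5.13 points. Without SKOV3 replicate 2, and with the dispersion of the 4 libraries kept, 1799 sites were higher and 77 lower, and without SKOV3 replicate 1, 1844 and 256. No site passed, and the count at an unadjusted p under 0.05 was 10817 higher and 2743 lower, when limma was run on arcsine levels without regard to depth. Refits without 1 library that estimated the dispersion anew called 0 to 17 sites higher and 0 to 5 lower, and correction for unconverted adenosine left 0 and 0 (11295 and 3912 at an unadjusted p under 0.05).

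**Figure D1:**
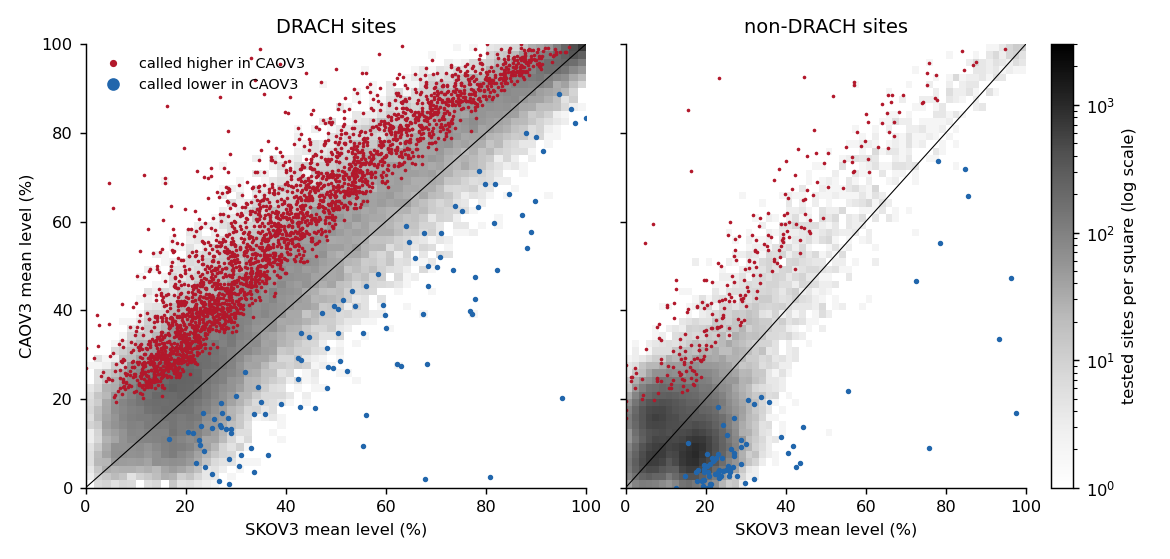
Mean level in CAOV3 (vertical) against SKOV3 (horizontal), in percent, for DRACH and non-DRACH sites; grey squares give the number of tested sites on a log scale, red and blue points are sites called higher and lower in CAOV3, and the line marks equality. The DRACH cloud lies above the line through the middle of the range, with 2992 red and 105 blue points, and the non-DRACH cloud does not.

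The difference was widest at sites of middle level. DRACH sites were grouped by the mean level of the other lines that covered them, which the comparison did not use. Those at 50% to 75% averaged 66.8% and 68.4% in CAOV3 against 59.9% and 59.9% in SKOV3, and 746 of 9181 were called higher (8.13%) and 29 lower. Sites at 25% to 50% averaged 40.9% and 42.5% against 34.7% and 34.5%. Sites at 90% or more averaged 95.9% and 96.2% against 94.6% and 94.5%, a gap of 1.48 points close to the ceiling. Sites under 10% averaged 12.8% and 13.5% in CAOV3 against 11.6% and 15.9% in SKOV3, where the libraries overlapped.

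By motif the ranking of levels was alike and the gap went with the level. At ggAct the mean was 59.1% and 60.3% in CAOV3 against 53.7% and 53.7% in SKOV3, and 795 of 10795 sites were called higher and 23 lower. At gaAct it was 52.1% and 54.5% against 47.4% and 47.4%, with 502 of 7413 higher. At tgAcc, a weak DRACH form, the lines overlapped at 18.9% and 18.1% in CAOV3 against 17.0% and 20.4% in SKOV3, and 8 of 994 sites were called higher. Outside DRACH, ggAcg had 36.8% and 37.1% in CAOV3 against 33.8% and 34.0% in SKOV3, with 56 of 1785 sites higher and 5 lower. The form gtAct had 32.5% and 36.1% against 29.8% and 30.3%, with 45 of 1147 higher and 2 lower. In CAOV3 with STM3675 the sites at ggAcg averaged 13.4% and 13.4%, and those at gtAct 6.48% and 6.47%.

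Position within the transcript also separated the sites. Last exons held 63.3% of tested DRACH sites and 2426 of the 2992 called higher (81.1%), with 73 of the 105 called lower (69.5%). Their mean level was 48.6% and 49.8% in CAOV3 against 43.6% and 43.7% in SKOV3. In internal exons it was 37.4% and 38.4% against 34.5% and 35.6%, and 320 of 15459 sites were called higher (2.07%, against 6.14% in last exons). At matched level, with 25% to 75% in the other lines, the difference was 7.71 points in last exons (17326 sites) and 5.88 points in internal exons (4704 sites). Sites in last exons were also deeper, with a median of 49 reads in the shallowest library against 36 in internal exons. At matched level these medians were 56 and 43. Calls followed depth, and the part of depth in the shares called was not tested. Genes with 1 exon had 59.7% and 60.7% in CAOV3 against 54.7% and 54.6% in SKOV3, and 80 of their 1519 DRACH sites were called higher and 0 lower.

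Along last exons the gap grew with distance from the start of the exon. Among sites at 25% to 75% in the other lines, those within 150 nt of the start averaged 48.9% and 50.3% in CAOV3 against 44.3% and 43.8% in SKOV3. Those over 400 and up to 1000 nt away averaged 51.8% and 53.2% against 44.0% and 43.9%, and those past 2000 nt 50.8% and 52.7% against 42.3% and 42.2%. The difference was 5.54 points at the start and 9.55 points at the far end. The SKOV3 mean was lower far from the start than near it, and the CAOV3 mean was not. Internal exons had no steady order by width. Exons of up to 150 nt differed by 7.79 points (136 sites), those over 150 and up to 200 nt by 9.14 points (196 sites), those over 200 and up to 400 nt by 6.65 points (996 sites) and those over 400 nt by 5.39 points (3376 sites). No test was made of these trends, which rest on 2 libraries a line.

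**Figure D2:**
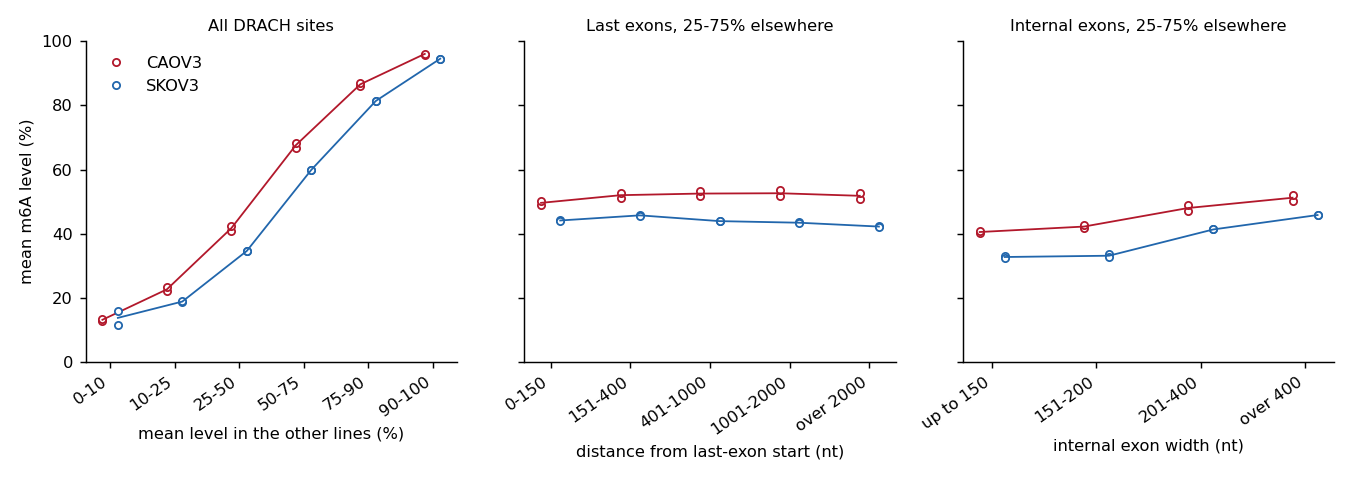
Mean m6A level in percent of each library (circles) and line (lines) at DRACH sites. Sites are grouped by the mean level of the other lines that covered them, by distance from the start of the last exon and by width of internal exons in nucleotides. The middle and right panels hold sites at 25% to 75% in the other lines. The CAOV3 to SKOV3 gap is 7.69 points at sites of 50% to 75% and 1.48 points at 90% or more, and along last exons it is 5.54 points within 150 nt and 9.55 points past 2000 nt.

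The largest single site gains in CAOV3, with at least 50 reads in every library and lines that did not overlap, lay mostly in last exons. The largest was in internal exon 7 of MARCHF7, a RING-CH ubiquitin ligase, at chromosome 2, position 159747940 (plus strand, GRCh38, motif ggAct, 135 nt from the exon start). Its level was 82.9% and 89.1% in CAOV3, against 13.2% and 19.2% in SKOV3 (difference 69.7 points, SE 4.03, adjusted p = 2.97e-34, 105 to 177 reads). SKOV3 was the line that stood apart, since A549 had 62.7%, COV644 68.1%, EFO21 68.6% and OE21 66.7%. Another site of the same exon overlapped between the lines. At 634 nt from the exon start MARCHF7 had 82.0% and 90.6% in CAOV3 against 87.6% and 84.7% in SKOV3 (adjusted p = 0.985).

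DLG5, a scaffold protein of cell polarity and adhesion, had its largest gain in the last exon, at chromosome 10, position 77792340 (minus strand, motif gaAca). Its level was 91.1% and 86.4% in CAOV3 against 36.0% and 35.5% in SKOV3 (difference 53 points, SE 5.15, adjusted p = 3.29e-17), and the other lines had 36.9% to 61.8%. SNX1, a sorting nexin of the retromer, had 73.5% and 87.4% in CAOV3 against 29.7% and 27.1% in SKOV3 at chromosome 15, position 64143381 (plus strand, motif aaAct, last exon). PGAP2, which remodels glycolipid anchors of membrane proteins, had 89.0% and 93.9% in CAOV3 against 47.2% and 46.9% in SKOV3 at chromosome 11, position 3826063 (plus strand, motif ggAct, last exon). A549, COV644 and EFO21 had 85.7% to 92.9% there, and OE21 had 1.91%, below the background of the CAOV3 and SKOV3 libraries. The background of OE21 itself was not measured here.

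Among the other 7 gains CAOV3 was the highest of the 6 lines except at MRFAP1L1 and AMOTL2. SLC41A1, a magnesium transporter, had 76.2% and 68.1% in CAOV3 against 32.7% and 17.5% in SKOV3, and the other lines 19.2% to 46.1%. KIRREL1, an adhesion protein of the immunoglobulin family, had 63.8% and 66.7% in CAOV3 against 24.6% and 24.5% in SKOV3, and the other lines ran from 0.505% in A549 to 40.3% in EFO21. MED24, a Mediator subunit, had 65.2% and 70.5% in CAOV3 against 32.9% and 23.1% in SKOV3, with 27.4% to 51.0% elsewhere. No other line reached CAOV3 at these sites. RETREG3, a receptor for autophagy of the endoplasmic reticulum, had 67.2% and 59.6% in CAOV3 against 18.8% and 15.4% in SKOV3, with 43.1% to 60.3% elsewhere. MRFAP1L1 had 73.1% and 77.3% in CAOV3 against 32.5% and 25.3% in SKOV3, and COV644 was higher still at 90.9%. AMOTL2, an angiomotin family member of the Hippo pathway, had 64.4% and 68.8% in CAOV3 against 24.1% and 28.6% in SKOV3, with 67.4% in COV644. SLC35E2B had 65.7% and 76.6% in CAOV3 against 25.2% and 31.7% in SKOV3, but a near-identical copy of this gene makes its reads uncertain.

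The largest losses in CAOV3 were fewer, and in several of them CAOV3 was not alone. EIF2B2, a subunit of the exchange factor that recycles initiation factor eIF2, led at chromosome 14, position 75009369 (plus strand, motif ggAct, last exon, 338 nt from its start). Its level was 9.94% and 8.81% in CAOV3, about the background, against 56.8% and 54.3% in SKOV3 (difference -46.1 points, SE 3.07, adjusted p = 1.1e-37, 315 to 370 reads). OE21 was as low at 7.51%, A549 had 41.7%, and COV644 and EFO21 had 90.7% and 90.4%. TK1, the thymidine kinase of dividing cells, had 40.7% and 37.8% in CAOV3 against 77.9% and 76.4% in SKOV3 at chromosome 17, position 78174629 (minus strand, motif gaAct, last exon; difference -37.9 points, SE 2.65, adjusted p = 1.28e-36). OE21 was again low at 31.0%. NUDCD3, a stabiliser of dynein, had 45.1% and 49.8% in CAOV3 against 75.4% and 80.4% in SKOV3 at chromosome 7, position 44385608 (minus strand, motif ggAct, last exon), and OE21 had 26.8%.

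At some losses the level in CAOV3 was near or below its background of 8.51% and 8.82%. Base changes at these positions were not analysed, and an A-to-G change would be read as an unmethylated site. GOPC, a Golgi-associated PDZ protein, had 1.92% and 0% in CAOV3 against 29.6% and 27.6% in SKOV3 at a site of its first exon, with 52 to 328 reads. UBAP1, a subunit of the ESCRT-I sorting complex, had 7.23% and 2.44% in CAOV3 against 28.3% and 33.2% in SKOV3. CRKL, an adaptor of tyrosine kinase signalling, had 3.03% and 11.7% in CAOV3 against 36.3% and 36.7% in SKOV3, while A549, COV644 and EFO21 had 9.79%, 5.82% and 0% and OE21 50.3%. At CRKL it was SKOV3 and OE21 that were high. In others the level in CAOV3 stayed substantial. MRPL34, a protein of the mitochondrial ribosome, had 51.4% and 56.6% in CAOV3 against 87.1% and 89.3% in SKOV3. TAB2, an adaptor of the kinase TAK1, had 64.4% and 65.0% against 86.7% and 92.7%. PIGO, an enzyme of glycolipid anchor synthesis, had 17.2% and 19.2% in CAOV3 against 47.9% and 37.9% in SKOV3. PLEC, the cytoskeletal linker plectin, had 46.3% and 51.9% against 70.8% and 76.1%. SERF1B, which has a near-identical copy and is uncertain, had 35.7% and 42.4% in CAOV3 against 66.3% and 68.5% in SKOV3, and its call was the weakest of the 12 (adjusted p = 0.0341). In CAOV3 with STM3675 the 23 named DRACH sites read 1.25% to 17.6%.

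Non-DRACH sites gave a few differences as large. RNF26, a ubiquitin ligase of the endoplasmic reticulum, had 93.8% and 90.8% in CAOV3 against 26.8% and 20.0% in SKOV3 at chromosome 11, position 119335667 (plus strand, motif ggAcg; difference 68.9 points, SE 4.54, adjusted p = 1.98e-23), and the other lines had 66.0% to 82.8%. MRPL14, of the mitochondrial ribosome, had 51.5% and 67.6% in CAOV3 against 10.0% and 3.75% in SKOV3 (motif cgAct). USF1, a helix-loop-helix transcription factor, had 88.6% and 88.2% against 50.7% and 52.8% (motif ggAcg). The largest loss was in the last exon of DAG1, the dystroglycan gene, at chromosome 3, position 49533448 (plus strand, motif gaAtt). Its level was 9.36% and 8.77% in CAOV3, against 77.3% and 74.3% in SKOV3 (difference -66.8 points, SE 2.47, adjusted p = 2.34e-83, 308 to 529 reads). SKOV3 was the highest line there and COV644 was next at 32.0%, with 6.54% in A549, 8.09% in EFO21 and 4.92% in OE21. A second TK1 site, ggAcg, had 23.2% and 20.3% in CAOV3 against 56.2% and 54.9% in SKOV3, and TMEM44 had 14.2% and 13.1% against 42.1% and 46.8%.

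The called sites were also read in the other lines. At the 2750 higher DRACH sites covered in all 6 lines, the average level was 57.5% and 58.5% in CAOV3 and 41.4% and 40.6% in SKOV3, and it was 46.8% in A549, 47.5% in COV644, 44.2% in EFO21 and 42.1% in OE21. CAOV3 was the highest line at 2372 of them (86.3%), SKOV3 the lowest at 926 (33.7%), and both held at 730. The average of the other 4 lines fell between the lines at 2156 (78.4%). At the 96 lower sites the average was 33.8% and 35.7% in CAOV3 and 52.0% and 54.2% in SKOV3, with 39.5% to 48.3% in the other lines. CAOV3 was the lowest line at 30 of them, SKOV3 the highest at 34, and both held at 6. CAOV3 and SKOV3 were chosen as the ends by the call itself, so the place of the other lines is a description. With STM3675, the same higher sites averaged 8.9% and 8.97% and the lower ones 9.3% and 9.14% in CAOV3.

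Set beside other pairs at the 68873 sites covered in all 12 DMSO libraries, CAOV3 over SKOV3 had 3565 sites higher and 184 lower (5.44% called). CAOV3 over EFO21, another ovarian line, had 2902 higher and 226 lower (4.54%), and EFO21 over SKOV3 had 561 higher and 328 lower (1.29%). CAOV3 over COV644, also ovarian, had the most of these 4 pairs, with 6322 higher and 714 lower (10.2%). Of its higher sites 3519 lay in a DRACH motif, against 3293 for CAOV3 over SKOV3. Its median difference was 5.78 points at non-DRACH sites and 3.43 points at DRACH sites. For CAOV3 over SKOV3 these were -0.879 and 4.8 points. These comparisons share libraries, so their counts are not independent of each other.

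Genes differed in how many of their sites moved. Of 9165 genes with a tested DRACH site, 1758 had at least 1 called higher, 73 at least 1 called lower and 22 both. PODXL, the sialomucin podocalyxin, had the most, with 12 of 32 higher and 0 lower. Over its DRACH sites PODXL was at 41.3% and 43.9% in CAOV3 against 26.9% and 25.7% in SKOV3 (difference 16.3 points, SE 1.59, adjusted p = 1.28e-05). All 12 of those sites lay in the last exon, and the neighbouring ggAct at 462 nt from its start was close to full in both lines, at 97.1% and 92.3% in CAOV3 against 95.4% and 91.7% in SKOV3. CD59, an inhibitor of complement on the cell surface, had 10 of 11 sites higher, and over them 43.9% and 45.0% in CAOV3 against 30.3% and 32.1% in SKOV3. LRPAP1, a chaperone of lipoprotein receptors, and OGT, the enzyme that adds N-acetylglucosamine to proteins, each had 9. LRPAP1 was at 70.2% and 66.8% in CAOV3 against 48.5% and 50.4% in SKOV3. OGT was at 47.5% and 50.5% against 26.9% and 28.5%, with 1 further site lower.

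Within single exons sites did not all move alike. In SNX1 the 12 DRACH sites more than 5000 nt into a last exon of 6664 nt averaged 53.3% and 57.1% in CAOV3 against 21.2% and 20.6% in SKOV3, and 7 of the 12 were called higher. The other 9 SNX1 sites averaged 16.1% and 18.9% in CAOV3 against 15.2% and 20.8% in SKOV3, and 0 of them were called. At 152 nt into the same exon the site was not called, with 53.2% and 54.0% in CAOV3 against 44.1% and 52.5% in SKOV3 (adjusted p = 0.603). The mark at 5000 nt was set after the values were seen, so the split of SNX1 calls is a description.

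In DLG5 the last exon held calls in both directions. Its site at 203 nt was higher, as given above, and 4 sites at 608, 741, 759 and 833 nt were lower. At 759 nt the level was 17.9% and 20.1% in CAOV3 against 38.9% and 39.0% in SKOV3 (SE of the difference 2.39, adjusted p = 5.44e-13, 691 to 889 reads). At 833 nt it was 68.1% and 68.8% against 82.4% and 81.4%, and at 741 nt 21.9% and 22.9% against 45.2% and 51.2%. The sites of internal exon 15 near full methylation did not differ, with 88.2% and 87.0% in CAOV3 against 86.4% and 86.4% in SKOV3 at 583 nt. Summed over its 28 DRACH sites DLG5 was lower in CAOV3, at 39.3% and 36.1% against 42.7% and 43.6% (adjusted p = 0.0386). Of the 28 sites 14 had a higher mean in CAOV3, and the median difference was 0.0402 points.

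DGCR8, a partner of Drosha in microRNA processing, split between exons. The 3 sites called lower lay in 1 internal exon, among them a ggAct at 196 nt with 59.4% and 63.4% in CAOV3 against 88.6% and 85.7% in SKOV3. The site called higher lay in the last exon, with 65.6% and 66.9% in CAOV3 against 46.2% and 29.1% in SKOV3. SLC35A4 had 3 sites called lower and 0 higher, and over its 16 DRACH sites 49.4% and 52.9% in CAOV3 against 58.9% and 59.6% in SKOV3 (adjusted p = 0.0061).

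**Figure D3:**
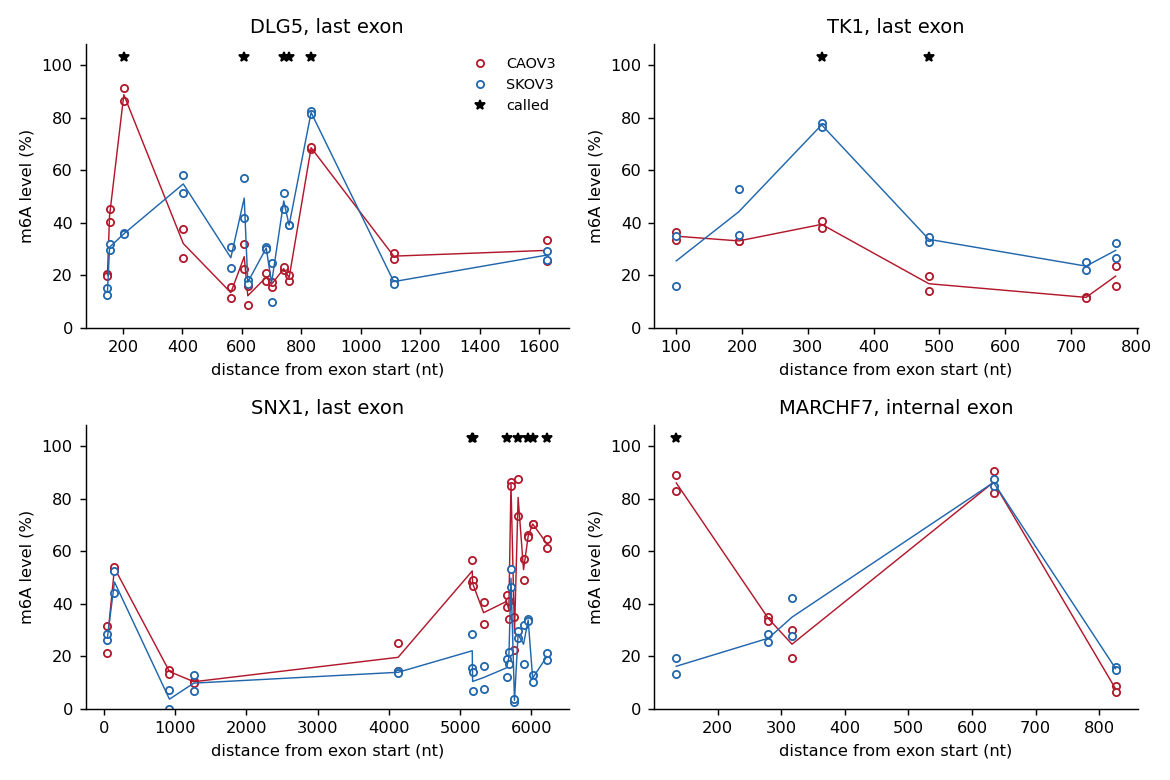
m6A level in percent of each library (circles) and mean of each line (lines) at DRACH sites along the last exons of DLG5, TK1 and SNX1 and an internal exon of MARCHF7, by distance in nucleotides from the exon start; stars mark called sites. DLG5 is higher in CAOV3 at 203 nt and lower at 608 to 833 nt. SNX1 parts beyond 5000 nt, a mark set after the values were seen.

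AHNAK, a giant scaffold protein with a last exon of 18173 nt, went against the general direction. Of its 164 tested DRACH sites 9 were called lower in CAOV3 and 2 higher. Over the sites together AHNAK was at 40.9% and 43.1% in CAOV3 against 46.2% and 46.6% in SKOV3 (difference -4.43 points, SE 1.38, adjusted p = 0.029). The direction changed along the exon. Among the 12 sites in the first 1000 nt of the exon 9 had a higher mean in CAOV3, with 54.8% and 53.9% against 48.4% and 51.2% in SKOV3. Among the next 143 sites 127 had a lower mean, 39.1% and 40.8% in CAOV3 against 46.6% and 47.7% in SKOV3, and all 9 lower calls were there. Among the 7 sites in the last 1500 nt 6 were higher and both higher calls were there, with 51.4% and 51.3% in CAOV3 against 39.2% and 36.3% in SKOV3 at 17711 nt. These stretches were marked off after the values were seen. In the middle stretch the other lines had 32.1% in A549, 50.3% in COV644, 45.7% in EFO21 and 47.8% in OE21.

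**Figure D4:**
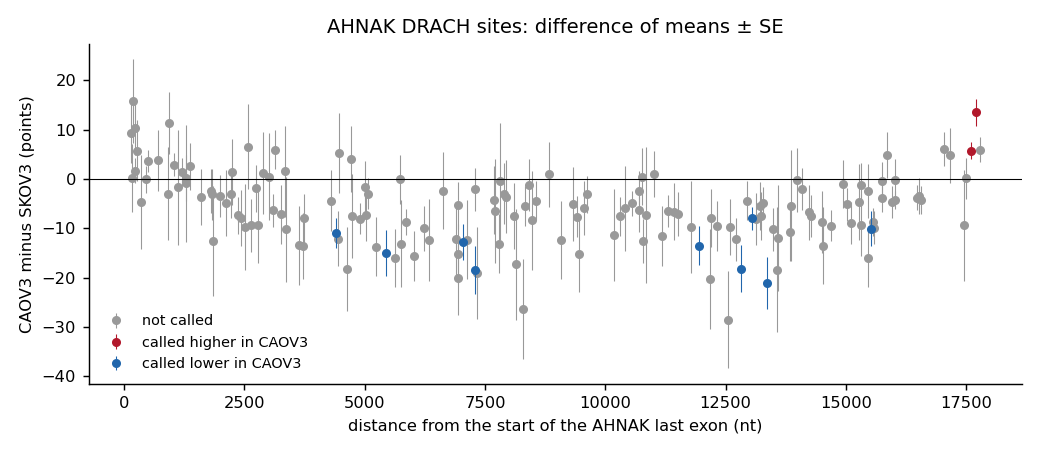
Difference in m6A level in percentage points, CAOV3 minus SKOV3, with its standard error, at each tested DRACH site of the AHNAK last exon by distance in nucleotides from its start; grey sites were not called. The 9 sites called lower lie between 4412 and 15514 nt and the 2 called higher at 17603 and 17711 nt.

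Summed over all tested sites of a gene identifier, 718 of 10269 genes (6.99%) were higher in CAOV3 and 31 (0.302%) lower. Such a sum weights each site by its reads, so it can also shift where the reads are spread differently over the sites. The part of this in the gene results was not tested. Summed over DRACH sites alone, 2125 of 9216 genes (23.1%) were higher and 34 (0.369%) lower, with a median difference of 4.94 points and a positive difference in 81.2% of genes. Both sums called 693 genes higher and 11 lower. With the median logit difference of 0.0976 removed from the first sum, 170 genes were higher and 33 lower.

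Of genes with at least 3 DRACH sites, RAB27B, a small GTPase of secretory vesicles, rose most, to 49.1% and 41.4% in CAOV3 against 20.2% and 24.1% in SKOV3 (difference 23.1 points, SE 4.81, adjusted p = 0.00603). PFN2, an actin-binding profilin, had at least 10148 reads a library, at 42.8% and 44.7% in CAOV3 against 23.3% and 24.2% in SKOV3 (adjusted p = 4.93e-08). CCDC32 had 60.3% and 57.8% in CAOV3 against 39.2% and 37.7% in SKOV3, and CACFD1 54.2% and 57.4% against 37.2% and 35.9%. SRSF9, a splicing factor, had 48.1% and 41.0% in CAOV3 against 28.0% and 22.7% in SKOV3. TK1 fell most, to 26.0% and 25.8% in CAOV3 against 51.3% and 52.5% in SKOV3 (difference -26.0 points, SE 1.88, adjusted p = 1.85e-07). ZNF607, a zinc finger gene, had 36.6% and 37.6% against 54.9% and 56.1%. Both kept their direction and call over DRACH sites alone, with TK1 at 28.9% and 27.6% against 54.0% and 55.0%. The calls of CDIN1 (15.4% and 18.5% in CAOV3, 23.1% and 32.9% in SKOV3), GTPBP6 (29.4% and 28.7%, 35.4% and 44.5%) and YJU2B (28.5% and 19.1%, 36.5% and 32.5%) did not hold over DRACH sites alone (adjusted p = 0.442, 0.288 and 0.567). At sites that had passed in another line CDIN1 was 8.48 points higher in CAOV3. In CDIN1 and GTPBP6 SKOV3 replicate 2 was the higher of the SKOV3 libraries.

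The 18 gene lists were read against these shares. Among writers, erasers and readers of m6A, 4 of 26 genes were higher and 0 lower, and over DRACH sites 6 of 22 (27.3%) and 0. YTHDF2, a reader that recruits RNA decay, had 69.8% and 71.0% in CAOV3 against 63.9% and 61.3% in SKOV3 (adjusted p = 0.0138). VIRMA, a scaffold of the writer complex, had 48.2% and 50.4% against 44.1% and 41.7%. METTL14, the RNA-binding partner of METTL3, had 60.8% and 57.5% in CAOV3 against 51.0% and 53.3% in SKOV3 over its DRACH sites (adjusted p = 0.0426), and its sum over all sites did not pass (adjusted p = 0.285). HNRNPA2B1 and ZC3H13 were also higher over DRACH sites. METTL3 had 24.2% and 28.7% in CAOV3 against 24.1% and 25.7% in SKOV3, WTAP 33.1% and 36.2% against 33% and 34.2%, and the demethylase ALKBH5 35.7% and 36.9% against 35.3% and 30.8%, and none of these passed. The demethylase FTO had 1 tested site, at 27.3% and 6.9% in CAOV3 against 8.08% and 4.07% in SKOV3.

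The signalling lists with the largest shares were TGF-beta and SMAD (6 of 28 genes higher, and 10 of 25 or 40.0% over DRACH sites) and WNT and Hippo (5 of 35, and 14 of 35 or 40.0%), with 0 lower. The activin receptor ACVR1B was at 62.5% and 62.2% in CAOV3 against 42.2% and 52.3% in SKOV3, and the TGF-beta receptor TGFBR1 at 50.1% and 54.0% against 38.9% and 44.5%. In the Hippo pathway the kinase STK4 was at 39.6% and 39.6% against 32.2% and 30.2%, and AMOTL1 at 32.2% and 35.9% against 17.3% and 20.1% over DRACH sites. Receptor kinases and RAS signalling had 3 of 37 higher, and 11 of 35 over DRACH sites, with the phosphatase PTPN11 at 27.8% and 29.8% in CAOV3 against 18.2% and 20.0% in SKOV3 and FGFR3 at 48.6% and 41.7% against 27.6% and 30.1% over DRACH sites. PI3K, AKT and mTOR genes had 3 of 27 and 5 of 25, with RICTOR, a subunit of mTORC2, at 42.3% and 48.4% against 30.0% and 30.4% over DRACH sites.

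Of cell cycle genes 3 of 41 were higher, and 8 of 41 over DRACH sites, with the transcription factor E2F1 at 44.5% and 41.4% in CAOV3 against 34.5% and 33.8% in SKOV3 and the ubiquitin ligase subunit FBXW7 at 68.7% and 63.8% against 52.9% and 52.8% over DRACH sites. Apoptosis regulators had 2 of 25, and 7 of 25 over DRACH sites, with MCL1, an anti-apoptotic BCL2 relative, at 49.3% and 46.6% against 36.4% and 37.1%. The p53 pathway had 2 of 31 and 6 of 28, with RRM2B, a ribonucleotide reductase subunit, at 52.1% and 51.9% against 32.5% and 36.0% over DRACH sites. Homologous recombination and Fanconi genes had 1 of 30, and over DRACH sites 4 of 28 higher and 1 lower. The lower one was FANCE, at 6.09% and 9.32% in CAOV3 against 14.6% and 33.6% in SKOV3, where the spread between the SKOV3 libraries was larger than its distance from CAOV3. NRF2 and oxidative stress genes had 1 of 24 and 3 of 20, with the cystine transporter SLC7A11 at 26.9% and 30.4% against 21.8% and 20.9%.

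Epithelial junction and keratin genes had 3 of 22 higher, and 5 of 21 over DRACH sites, with CTNNB1, the junction protein beta-catenin, at 32.4% and 32.9% in CAOV3 against 25.5% and 24.7% in SKOV3. Mesenchymal and matrix genes had 4 of 29 and 7 of 26, with the laminin chain LAMC1 at 43.7% and 44.8% against 30.4% and 32.2%. Of ovarian and Müllerian markers 1 of 10 was higher, CD24, a surface glycoprotein, at 57.2% and 60.8% in CAOV3 against 41.8% and 45.3% in SKOV3. Interferon-stimulated genes had 1 of 42 and 8 of 35, with EIF2AK2, the RNA-activated kinase PKR, at 28.2% and 29.4% against 16.5% and 19.2% over DRACH sites. Antigen presentation genes had 1 of 17, and over DRACH sites 4 of 17 higher and 1 lower. B2M, the light chain of MHC class I, was at 39.4% and 40.5% in CAOV3 against 33.4% and 33.1% in SKOV3, and the lower gene was HLA-F, at 14.2% and 14.2% against 22.4% and 23%, whose reads are uncertain among its close relatives. Splicing factors had 4 of 44 and 11 of 37, with SF3A3, of the U2 particle, at 52.9% and 50.0% against 29.0% and 24.5% over DRACH sites. Chromatin regulators had 2 of 43 and 12 of 42, with HDAC2, a deacetylase, at 67.9% and 66.4% against 57.1% and 52.6%. Ribosomal and translation genes had 1 of 34, and over DRACH sites 4 of 26 higher and 1 lower, RPS14, at 18.2% and 17.7% in CAOV3 against 23.6% and 24.7% in SKOV3. The shares of the lists over DRACH sites ran from 11.1% to 40.0%, on either side of the 23.1% of all genes, and no list was tested.

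Of single genes often studied in ovarian cancer, ERBB2 was at 26.1% and 29.1% in CAOV3 against 28.9% and 29.6% in SKOV3 and MYC at 62.6% and 60.2% against 58.8% and 66.6%. PAX8 was at 30.1% and 29.2% against 24.3% and 30.2%, and BRCA1 at 32.2% and 32.1% against 28.2% and 32.9%. None passed (adjusted p = 0.85 for ERBB2, 0.842 for MYC, 0.588 for PAX8 and 0.673 for BRCA1), and the libraries of the lines overlapped in all 4.

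Read counts by gene were compared as well. Of 13100 genes 4972 (38.0%) were higher in CAOV3 and 4941 (37.7%) lower in edgeR's quasi-likelihood test. DMBT1, a mucin-like glycoprotein, had 7796 and 6516 reads in CAOV3 against 0 and 0 in SKOV3, and the serine proteases KLK5 and PRSS8 had 4999 and 4969 and 2055 and 2326 against 0 and 1 and 1 and 1. SLC2A14 and ALPP, which have near-identical copies, had 2223 and 2460 against 1 and 0, and 9796 and 11296 against 4 and 6. In the other direction RB1, the retinoblastoma tumour suppressor, had 1 and 1 reads in CAOV3 against 2808 and 2178 in SKOV3. PDGFC, a growth factor, had 3 and 2 reads in CAOV3 against 9318 and 7623 in SKOV3, and DHRS2 7 and 7 against 19310 and 14878. RAPGEF2 had 1 and 2 against 3813 and 3233, and LHX1, a homeobox gene, 1 and 1 against 2338 and 2226. ERBB2, the HER2 receptor, had 85.4 and 97.6 counts scaled to library size (CPM) in CAOV3 against 4713 and 3958 in SKOV3 (log2 fold change -5.57, SE 0.16, adjusted p = 9.71e-23).

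Coverage and m6A were compared across genes. Over 9216 genes the difference in m6A at DRACH sites and the log2 fold change in reads had a Spearman rho of -0.119 and a Pearson r of -0.103, as a description of genes that share the same 4 libraries. The 310 genes with a log2 fold change under -2 had a median m6A difference of 5.86 points, and the 285 with one over 2 had 3.63 points. METTL3 itself had 27.2 and 30.3 CPM in CAOV3 against 30.5 and 27.0 in SKOV3 (adjusted p = 0.999). METTL14 had 75.7 and 75.8 against 98.4 and 130 (log2 fold change -0.59, SE 0.14), and FTO 15.4 and 19.7 against 91.8 and 99 (log2 fold change -2.44, SE 0.16, adjusted p = 6.62e-14). ALKBH5 and WTAP did not pass, at 81.7 and 72.9 against 86.0 and 74.0 and at 138 and 139 against 125 and 126. The part of these levels in the difference of m6A was not tested.

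Sites not covered in all lines held a minority of the calls. At least 1 of the other 4 lines fell short of 20 reads in a DMSO library at 74761 of the 143634 tested sites. These held 280 of the 3259 higher calls and 32 of the 182 lower ones. Over all tested sites 2.27% were higher and 0.127% lower. Calls followed depth, as given above, and the part of depth in these counts was not tested. The 1816 genes with no site covered in all 6 lines held 98 and 10 of the calls. At 3677 sites (2.56% of those tested) in 1196 genes none of the other 4 lines was covered. Of these sites 5 were higher in CAOV3 and 0 lower, none of them a DRACH site with 50 reads throughout. LRPAP1 had 2 of the 5, at 65.0% and 77.8% in CAOV3 against 26.3% and 18.1% in SKOV3 (chromosome 4, position 3511159, minus strand, motif ggAct) and at 59.5% and 46.4% against 12.7% and 14.3% (position 3511519). EBF4, a transcription factor, had 89.7% and 94.3% in CAOV3 against 76.9% and 56.8% in SKOV3. PCGF3, a polycomb-group gene, had 8.33% and 26.7% against 0% and 0%, outside DRACH and with 36 to 67 reads.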

How the data were processed

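GLORI libraries of polyadenylated RNA from CAOV3 and SKOV3 with DMSO were compared, 2 per line. The submitters' processing notes name cutadapt, STAR and GRCh38, without versions, and no site caller is given in the sources used here. Per site and library the authors deposited the A+G count and a fraction, the level as A over A+G. Multiplied, they came out whole (tolerance 1e-06) and gave the A counts. A listed site had passed 20 reads and a fraction of 25% in some DMSO library, so sites are partly chosen by a high level in one of the compared libraries. Gene, exon, strand and 5-base motif are the table's; 10109 of 10212 gene names are RefSeq symbols. D columns were taken as DMSO and T columns as treated.

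Each site, and each gene on summed counts, got a quasi-binomial logistic fit in R 4.3.3; the dispersion was moderated with squeezeVar of limma 3.58.1 along depth, with a floor of 1, and F tests were adjusted by Benjamini-Hochberg over all sites or genes (threshold 0.05). The moderation gave each site the trend value of its depth (median 2.43), so sites that vary more than others of their depth are called too readily. Standard errors of differences come from this model and cover counting error times the dispersion. Reads per gene, summed over listed sites, were tested with edgeR 4.0.16 (quasi-likelihood), and with DESeq2 1.42.0 as an alternative. Mean levels were compared by exact permutation over 6 splits. The methods were tested on simulated data. The simulated site counts had a common dispersion, so they cannot show how often sites that vary more are called.

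Read counts per site differed between replicates by more than sampling noise (chi-square over degrees of freedom 3.91 in CAOV3 and 5.21 in SKOV3). The dispersion of m6A levels between replicates was 1.9 in CAOV3 and 2.59 in SKOV3. The replicates were kept as 2. Named sites were the 12 largest differences each way among called DRACH sites with 50 reads in all 4 libraries and no overlap (3 each way outside DRACH), 1 per gene; named genes were the 5 largest each way with 3 DRACH sites, those with most called sites, the leading 2 of each list, and fixed genes. Lists, rules and members were chosen with earlier results of these data known. MUC16 had no tested site, and the results of 2 items that these rules name are not reported here. Base changes in the genomes of the lines were not analysed here, and an A-to-G change would be read as an unmethylated site. PCR duplicates cannot be told apart, so errors cover counting and library spread only. Python 3.11.15, pandas 2.3.3 and matplotlib 3.10.9 made tables and figures.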

Additional observations from a re-analysis of the deposited data

How the results depend on the processing

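Centring on the median, chosen after seeing the data, evens the directions by construction and gave 604 sites higher and 531 lower (170 genes higher); 30 of 31 named sites kept their call and CREBZF lost it, while of the named genes 22 lost theirs, 3 changed sign and 23 were as before. Against 3259 and 182 sites and 718 and 31 genes, the dispersion of the line with the larger spread gave 1982 and 90 sites and 58 lower genes, a minimum of 10 reads 1090 and 51 sites, and a minimum of 50 reads 1632 higher genes. Sites that passed in another line gave 110 lower sites and 1366 higher genes, and DRACH sites only 82 lower sites and 2125 higher genes. limma on arcsine levels gave 0 and 0 sites and 0 and 0 genes (10817 and 2743 sites at an unadjusted p under 0.05), and weighted by reads, an alternative chosen after seeing the data, 873 and 38 sites. Corrected for unconverted adenosine there were 0 and 0 sites (11295 and 3912 unadjusted) and 344 and 16 genes, and on DRACH sites only, added later, 0 and 0 sites (11011 and 1131 unadjusted) and 2068 and 53 genes. Leaving out 1 library gave 0 to 17 sites higher and 0 to 5 lower, and 67 to 140 and 1 to 15 genes; with the dispersion of 4 libraries kept, added later, 1334 to 1881 and 64 to 256 sites and 180 to 336 and 2 to 21 genes (1881 and 64 sites, 284 higher genes without CAOV3 replicate 1; 1334 and 96 without CAOV3 replicate 2; 1844 sites and 265 genes higher without SKOV3 replicate 1; 1799 and 77 sites without SKOV3 replicate 2). The refit without SKOV3 replicate 1 called 0 sites and had 8627 higher and 9438 lower at an unadjusted p under 0.05, where the excess ran the other way. The lone library of a line is then assumed to vary like the other line.

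With the replicate block there were 1294 and 52 sites and 1430 and 192 genes; same-numbered libraries shared only a number, with correlations of their deviations of -0.00535 and -0.00283. The mean difference over DRACH sites was 5.59 points at 50 reads and 5.56 read-weighted, and 4.17 to 5.32 without 1 library (5.43 to 6.69 at sites of 25% or more elsewhere). Over all sites it was 4.05 at 50 reads, 3.27 at sites passed in another line, 2.49 at sites covered in all 12 DMSO libraries and 0.128 to 2.26 without 1 library. The background difference ran from -0.424 to 0.448 points. Coverage calls stayed at 4378 to 4872 higher and 4364 to 4768 lower without 1 library.

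Of the named genes, those that changed sign had not been called, except CDIN1, which was 8.48 points higher at sites passed in another line. BRCA1 turned to -1.38 at 10 reads and -0.479 centred, and ran from -0.763 (without SKOV3 replicate 1) to 3.99 without 1 library. ERBB2 turned to 0.48 at 50 reads. METTL3 ran from -0.72 (without CAOV3 replicate 2) to 3.76 and was -0.332 centred; WTAP ran from -0.447 (likewise) to 2.64 and was -1.08 centred. PAX8 ran from -0.581 (without SKOV3 replicate 1) to 5.38, and MYC from -5.21 to 2.59 (without SKOV3 replicate 2). The cause was not tested. At the median depth of 31 reads few sites can pass, so an uncalled site is not an unchanged one.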
